A study of Rattus norvegicus with 18 samples.

Results

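The genes described here are the translation initiation factors of the rat genome and the kinases and binding proteins that regulate them. They were chosen by name: every protein-coding gene of the deposited table whose symbol begins with Eif1 to Eif6. The rule gave 54 of 22293 protein-coding genes, in a table of 32545 genes. The 54 entries carry 53 symbols, because Eif3h stands in the table under both ENSRNOG00000004252 and ENSRNOG00000040153. Of the 54, 52 reached a level that could be tested in this fit (at least 1 FPKM, a level per gene length and sequencing depth, in 3 or more libraries). The other 2, Eif2s3y and Eif4e1b, are listed at 0 in all 18 libraries.

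The study exposed H9C2, an established line derived from embryonic rat heart, to short electric pulses and sequenced its poly(A) RNA in 18 libraries, with 3 libraries in each of 6 groups. NC had no treatment. ES10 received 10 pulses and ES50 received 50 pulses, each pulse lasting 100 µs at 1500 V/cm. P had PE at 50 µmol/L for 48 h, and P_ES10 and P_ES50 had the same PE exposure with 10 or 50 such pulses. The sources used here do not give the meaning of PE or the time from pulses to harvest. Nothing in the labels says that the 3 libraries of a group came from separate cultures, so the p-values measure only the spread between these libraries, which may be technical. The stated question is what the pulses do to heart muscle cells and their mitochondria. All groups are 1 cell line grown in culture, and the labels name its cell type as myocardium. Of 10 cardiomyocyte markers, 8 (Myh6, Myh7, Actn2, Ryr2, Nkx2-5, Nppa, Myl2 and Myl7) were under 1 FPKM in every NC library, while all 4 smooth muscle markers, 4 of 6 fibroblast markers and 3 of 8 skeletal myoblast markers had a mean of 1 FPKM or more, so the markers went against a mature myocardial identity.

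Translation of most mRNAs begins when eIF4E binds the cap, eIF4G bridges it to the helicase eIF4A and to eIF3, and the small ribosomal subunit, carrying eIF1, eIF1A, eIF5 and the eIF2 complex with initiator tRNA, scans to the start codon. There are 2 well known brakes. The 4E-BP proteins, which mTORC1 phosphorylates, keep eIF4E away from eIF4G, and the eIF2 kinases (HRI, PKR, PERK and GCN2, encoded by Eif2ak1 to Eif2ak4) phosphorylate eIF2α, which blocks its exchange factor eIF2B and favours translation of Atf4. Most of this control acts on proteins, while the values below are mRNA levels.

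The libraries differed in what they held. They contained 14004929 to 17247201 reads on genes, of which mitochondrial genes took 12.9% ± 1.21 in NC, 9.44% ± 0.319 in ES10, 5.48% ± 0.104 in P and 6.46% ± 0.377 in P_ES10, but 92.1% ± 0.728 in ES50 and 48.6% ± 1.66 in P_ES50 (mean ± SD, n = 3). Reads on nuclear genes therefore numbered 12059244 to 14665855 in the libraries of NC, ES10, P and P_ES10, 7813779 to 8060502 in P_ES50 and 1230554 to 1466851 in ES50. The deposited FPKM set the median gene equal in all libraries, so every level below is relative to the other nuclear genes. Whether a difference came from fewer cells or from less RNA per cell cannot be told apart in these bulk samples. The smooth muscle markers summed to 2158 to 2349 FPKM in NC and 5420 to 5647 FPKM in ES50, and the fibroblast markers to 3049 to 3115 and 1535 to 1591 FPKM. The 10 cardiomyocyte markers summed to 13.8 to 15.4 FPKM in NC and 35.9 to 48.2 in ES50, where 5 of them were at 0. The 8 skeletal myoblast markers summed to 128.1 to 130.3 FPKM in NC and 94.8 to 98.9 FPKM in ES50, where 5 of them had a mean of 1 FPKM or more and Myf5 was at 0. No endothelial marker had a mean of 1 FPKM in any group. The macrophage markers Adgre1 and Ptprc were at 0 in all groups, and all 4 macrophage markers were at 0 in ES50. The part of other cell types in the results was not tested.

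Promoters of 4 of the 6 genes that rose after 10 pulses both without and with PE are shown first. Eif4enif1 and Eif6, which are not shown, also rose in both. RefSeq, build GRCr8, held a promoter entry for 48 of the 53 symbols, and each line gives the 250 bases before the annotated start on the gene's own strand. In Eif1 (chr10:85746887-85747136, plus strand) and Eif3a (chr1:269919026-269919275, minus strand) the capitals mark the antioxidant response element core, TGACNNNGC or its reverse complement. In Eif4g2 (chr1:174628253-174628502, minus strand) they mark CCAAT boxes read as ATTGG, and in Eif4e (chr2:229740503-229740752, plus strand) they mark 2 E-boxes, CACGTG, a sequence known to be bound by MYC and related factors.
Eif1: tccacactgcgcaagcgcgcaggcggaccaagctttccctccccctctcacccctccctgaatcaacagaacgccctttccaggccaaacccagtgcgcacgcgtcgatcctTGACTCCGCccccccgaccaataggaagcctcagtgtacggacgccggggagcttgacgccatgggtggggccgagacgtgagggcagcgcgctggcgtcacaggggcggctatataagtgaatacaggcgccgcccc
Eif3a: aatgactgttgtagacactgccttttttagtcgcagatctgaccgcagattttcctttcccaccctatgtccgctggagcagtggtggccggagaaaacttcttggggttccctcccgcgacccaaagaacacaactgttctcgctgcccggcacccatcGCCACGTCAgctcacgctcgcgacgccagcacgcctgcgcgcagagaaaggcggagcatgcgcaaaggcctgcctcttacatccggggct
Eif4g2: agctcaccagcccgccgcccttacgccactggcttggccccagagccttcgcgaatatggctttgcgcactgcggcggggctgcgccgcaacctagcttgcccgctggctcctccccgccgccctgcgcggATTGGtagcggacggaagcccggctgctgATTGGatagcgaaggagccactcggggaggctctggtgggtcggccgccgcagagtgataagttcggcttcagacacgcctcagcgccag
Eif4e: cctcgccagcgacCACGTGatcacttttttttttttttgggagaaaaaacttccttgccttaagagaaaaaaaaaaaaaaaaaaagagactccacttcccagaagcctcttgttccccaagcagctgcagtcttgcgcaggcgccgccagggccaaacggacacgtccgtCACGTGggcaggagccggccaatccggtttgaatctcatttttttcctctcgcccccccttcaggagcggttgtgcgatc
Both strands of the 250 bases before the start were searched, and the same search was made in all 33469 promoters of the table. The E-box stood in 8 of 48 member promoters (16.7%, against 5.59% of all promoters): Eif1b, Eif3b, Eif3f, Eif4e, Eif4g1, Eif4h, Eif5a and Eif5a2. Of these 8, Eif3b, Eif4e and Eif4g1 fell and Eif1b, Eif3f, Eif4h, Eif5a and Eif5a2 rose in ES50 on the deposited scaling, so genes with the motif went both ways. The GC box GGGCGG stood in 32 (66.7%, against 30.5%), the antioxidant core in 9 (18.8%, against 10.1%) and CCAAT in 14 (29.2%, against 34.0%). The AP-1 motif TGANTCA stood in 3 (6.25%, against 6.34%), the heat shock pair GAANNTTC in 4 (8.33%, against 7.23%), the ATF4 composite TGATGNAAN in 2 (4.17%, against 3.38%), TATAAA in 2 (4.17%, against 12.9%) and the cAMP response element TGACGTCA in 0 (against 1.59%). These shares describe letters in a window and were not tested. Each member symbol entered with its first promoter entry only, while the 33469 promoters were not reduced in this way.

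In untreated cells the members spanned a wide range of levels per length. Eif5a, a hypusine-carrying factor that acts mainly in elongation, was the highest at 342, 333 and 340 FPKM. The helicase gene Eif4a1 followed at 240, 232 and 238 FPKM, and then Eif4g2, an eIF4G relative without the eIF4E-binding site, at 187, 189 and 183 FPKM. Eif1, which guards start codon choice, had 179, 172 and 167 FPKM, and Eif3c, a core eIF3 subunit, 143, 146 and 144 FPKM. These 5 neighbours in the order did not overlap in their NC libraries. In Rnor 6.0 Eif1 lies at chr10:88227360-88229765 and Eif4e at chr2:243820696-243852630, both on the plus strand. The lowest tested members were Eif4e3 (1.46, 1.16 and 1.00 FPKM), Eif2ak4 (2.49, 2.67 and 2.57 FPKM), Eif5a2 (5.26, 5.28 and 4.81 FPKM) and Eif2ak2 (5.76, 6.82 and 5.76 FPKM). Among the eIF2 kinases Eif2ak1 was the highest in NC, at 14.9, 16.1 and 16.6 FPKM, and Eif2ak3 second, at 9.53, 9.46 and 9.45 FPKM. The members together took 1.22% ± 0.00825 of nuclear reads in NC, 1.22% ± 0.0157 in ES10, 1.31% ± 0.00544 in ES50, 1.15% ± 0.0119 in P, 1.20% ± 0.00362 in P_ES10 and 1.29% ± 0.00807 in P_ES50 (mean ± SD, n = 3). The ES50 libraries were the highest and the P libraries the lowest in this share, and neither overlapped with NC.

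**Figure D1:**
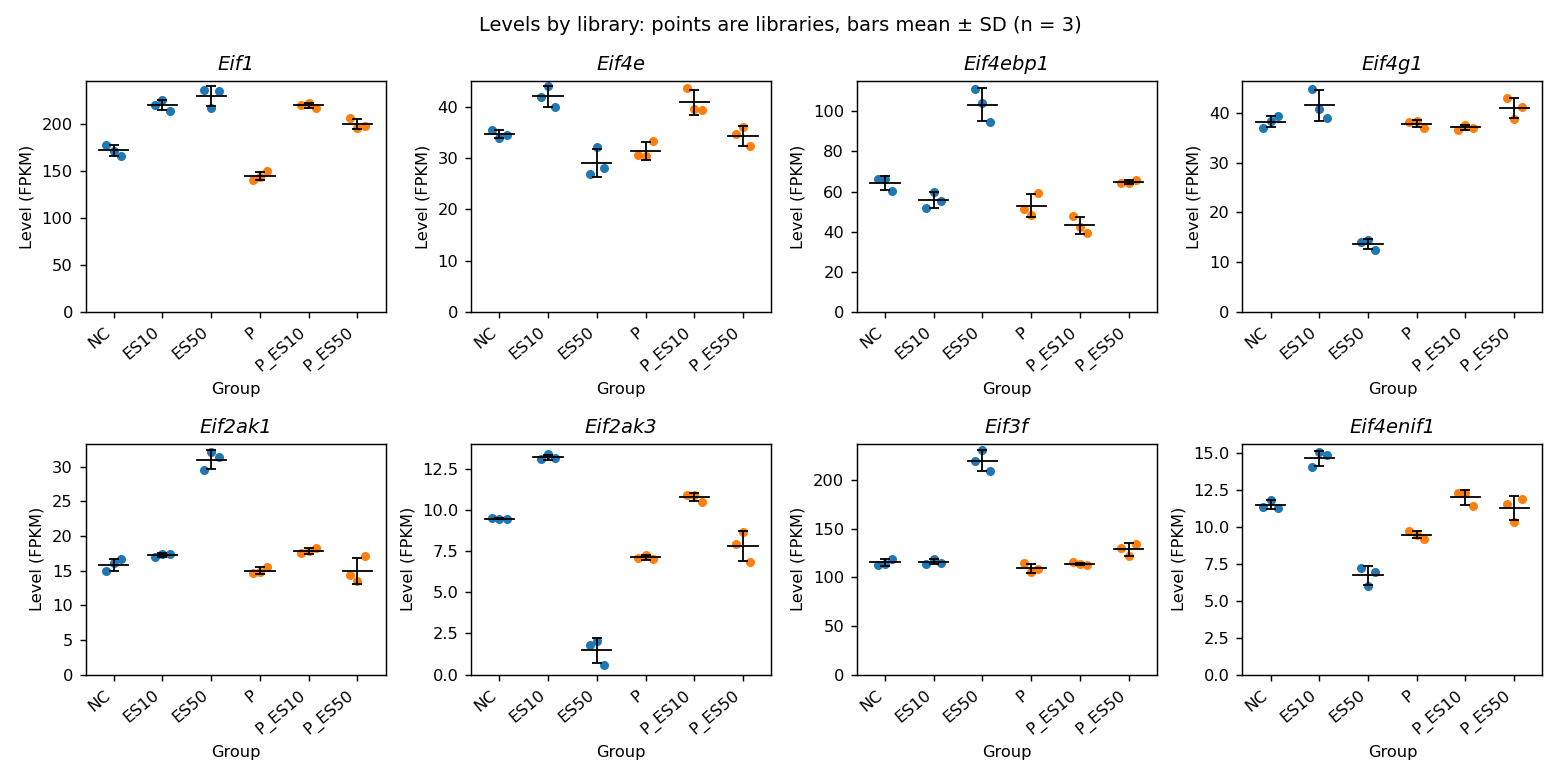
Level (FPKM) of 8 members in each library, grouped by treatment on the horizontal axis. Points are libraries (blue without PE, orange with PE) and bars are mean ± SD, n = 3. Eif2ak3 and Eif4g1 are lowest and Eif3f, Eif2ak1 and Eif4ebp1 highest in ES50 on the deposited scaling, and all 5 are lower in ES50 than in NC when scaled to total reads. Eif1 is higher in all 4 groups with pulses than in the matching group without, on the deposited scaling; with total reads it is lower in ES50 and P_ES50.

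After 10 pulses, a small set of initiation factor mRNAs was higher than in untreated cells. The set held the start codon factors Eif1 and Eif1b, the cap-binding protein Eif4e, the eIF4G relative Eif4g2, the eIF3 scaffold Eif3a, the eIF4E transporter Eif4enif1 and the ribosomal subunit factor Eif6. Differences were tested as log2(FPKM + 1) with limma, Benjamini-Hochberg adjusted over all 11917 genes tested. In this test 7 of 52 members rose and 0 fell, where 8.57% of all genes were called, 6.36% higher and 2.21% lower. By limma, 13 members had an unadjusted p under 0.05, a count given without the share of all genes at that threshold. The members' median difference was 0.03, against 0.02 for all genes. With scaling to reads on nuclear genes the split was 3 higher and 3 lower, and with quantile normalization 4 higher and 2 lower. On these scales 8.19% and 10.3% of all genes were called. Of the 7 calls 3 remained with total reads and with nuclear reads, namely Eif1, Eif3a and Eif4enif1. With reads thinned to equal nuclear depth 3 remained, namely Eif1, Eif3a and Eif4g2. The 4 macrophage markers summed to 1.43 to 1.70 FPKM in NC and 2.97 to 3.11 FPKM in ES10, and their part was not tested.

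Among the 40S and start codon factors 2 of 7 rose. Eif1 had 179, 172 and 167 FPKM in NC and 221, 226 and 215 FPKM in ES10. Its groups did not overlap, and the difference was 0.35 ± 0.04 (log2, SE; adjusted p = 3.76e-05). Eif1b, its close paralog, had 24.1, 22.0 and 24.8 FPKM in NC and 27.9, 28.4 and 31.1 FPKM in ES10, a difference of 0.29 ± 0.08 (adjusted p = 0.0352) that missed the threshold without any 1 of the 6 libraries (adjusted p 0.0578 to 0.155). Eif1a had 35.0, 35.0 and 36.7 FPKM in NC and 40.5, 39.8 and 37.7 FPKM in ES10, with a difference of 0.14 ± 0.05 that did not pass (adjusted p = 0.129).

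In the eIF4 group 2 of 10 rose. Eif4e had 35.5, 34.0 and 34.5 FPKM in NC and 42.0, 44.1 and 39.9 FPKM in ES10, so all ES10 libraries lay above all NC libraries. The difference was 0.27 ± 0.07 (adjusted p = 0.0211), and it missed the threshold without NC replicate 2 (adjusted p = 0.0803) or 3 (adjusted p = 0.0694) or ES10 replicate 1 (adjusted p = 0.0658) or 2 (adjusted p = 0.103). Eif4g2 had 187, 189 and 183 FPKM in NC and 218, 208 and 208 FPKM in ES10, a difference of 0.18 ± 0.03 (adjusted p = 0.00174). Both calls were lost with total reads (adjusted p = 0.0881 for Eif4e and 0.0606 for Eif4g2) and with nuclear reads (adjusted p = 0.119 and 0.14), and that of Eif4g2 also with quantile normalization (0.05, adjusted p = 0.635). Eif4g1, the scaffold itself, had 37.0, 38.4 and 39.3 FPKM in NC and 44.8, 40.8 and 38.9 FPKM in ES10; the groups overlapped and the difference of 0.11 ± 0.06 did not pass (adjusted p = 0.31). The helicase Eif4a1 moved by 0.03 ± 0.03 (adjusted p = 0.616).

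Of the 3 eIF4E-binding proteins, Eif4enif1 (4E-T, which carries eIF4E into the nucleus and to P-bodies) rose, from 11.3, 11.8 and 11.3 to 14.0, 15.03 and 14.8 FPKM, a difference of 0.33 ± 0.07 (adjusted p = 0.00696). Eif4ebp1, the main mTORC1-controlled brake, had 66.2, 66 and 60.2 FPKM in NC and 51.8, 59.9 and 55.3 FPKM in ES10. Its ES10 libraries were all lower, but the difference of -0.20 ± 0.08 did not pass (adjusted p = 0.178). Of the 14 eIF3 entries only Eif3a rose in this test, from 95.01, 91.7 and 92.2 to 114, 107 and 109 FPKM (0.24 ± 0.04, adjusted p = 0.00134). Eif6 had 85.9, 84.4 and 85.7 FPKM in NC and 91.5, 96.7 and 104 FPKM in ES10. Its difference of 0.19 ± 0.05 (adjusted p = 0.0438) missed the threshold without any of the NC libraries (adjusted p = 0.101, 0.133 and 0.107) and without ES10 replicate 2 (adjusted p = 0.109) or 3 (adjusted p = 0.2).

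None of the 4 eIF2 kinases, 5 tested eIF2 subunits and carriers or 5 eIF2B subunits was called after 10 pulses on the deposited scale with all 6 groups in the fit. Eif2ak3, which encodes the endoplasmic reticulum kinase PERK, still stood apart by library: 9.53, 9.46 and 9.45 FPKM in NC and 13.1, 13.4 and 13.1 FPKM in ES10. Its difference was 0.44 ± 0.17 (adjusted p = 0.14). The standard error is pooled over the 6 groups, and ES50 held only 18, 24 and 6 reads of this gene. In a fit without the ES50 group the same difference had an adjusted p of 0.000166, and with only NC and ES10 in the fit it was 0.000768. Without the ES50 group 17 members were called in all, a count given without the share of all genes called in that fit. Of these 17, 14 were higher and 3 lower, and all of the 7 were among them. They included Eif2s3 (0.13, adjusted p = 0.0134), Eif2b2 (-0.18, adjusted p = 0.0353) and Eif2b5 (-0.23, adjusted p = 0.0467). Eif2b5 was also called with nuclear scaling (-0.33, adjusted p = 0.0384) and Eif2ak3 with total reads (adjusted p = 0.00263).

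PE alone was accompanied by lower mRNA of several start codon and 40S factors and by a higher level of Eif4g3, a second eIF4G scaffold. In P against NC 1 of 52 members rose and 7 fell, where 9.53% of all genes were called, 4.72% higher and 4.81% lower. The share of members that fell was 13.5%. The median difference was -0.06 for members and 0.00 for all genes. Scaled to total reads, which put the median of all genes at 0.11, the split was 5 higher and 4 lower. On that scale 25.1% of all genes were called. Of the 8 calls 4 remained with total reads, and 2, Eif3c and Eif4g2, with reads thinned to equal nuclear depth.

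Eif1 fell from 179, 172 and 167 FPKM in NC to 141, 144 and 150 FPKM in P (-0.25 ± 0.04, adjusted p = 0.000905). Eif1a fell from 35.0, 35.0 and 36.7 to 28.4, 29.3 and 29.1 FPKM (-0.29 ± 0.05, adjusted p = 0.00323). Eif4g2 fell from 187, 189 and 183 to 163, 166 and 158 FPKM (-0.20 ± 0.03, adjusted p = 0.00073). In these 3 genes the groups did not overlap, and the call remained without each of the 6 libraries in turn. With total reads the calls of Eif1a (-0.18, adjusted p = 0.0702) and Eif4g2 (-0.09, adjusted p = 0.182) were lost, and with thinned reads those of Eif1 (adjusted p = 0.114) and Eif1a (adjusted p = 0.21).

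The other 5 calls each missed the threshold without at least 1 of the libraries. Eif5b, the GTPase that joins the subunits, had 34.6, 31.2 and 26.2 FPKM in NC and 19.8, 25.1 and 23.5 FPKM in P. Its difference of -0.41 ± 0.11 (adjusted p = 0.0361) missed the threshold without NC replicate 1 (adjusted p = 0.166) or 2 (adjusted p = 0.107) or P replicate 1 (adjusted p = 0.164) or 3 (adjusted p = 0.0704). Eif2s2, which encodes eIF2β, had 135, 129 and 122 FPKM in NC and 103, 114 and 115 FPKM in P. The difference of -0.22 ± 0.06 (adjusted p = 0.0321) missed it without NC replicate 1 (adjusted p = 0.143) or 2 (adjusted p = 0.0941) or P replicate 1 (adjusted p = 0.151) or 2 (adjusted p = 0.0576). Eif4enif1 (-0.25 ± 0.07, adjusted p = 0.0288) and Eif3c (-0.15 ± 0.04, adjusted p = 0.0219) missed it without any 1 library (p 0.0627 to 0.104 and 0.0502 to 0.0782). Eif4g3 rose from 10.0, 10.4 and 11.8 to 13.8, 14.0 and 13.5 FPKM (0.33 ± 0.07, adjusted p = 0.00956), and missed it without NC replicate 1 (0.28, adjusted p = 0.0572).

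The eIF2 kinases and the 4E-BPs were not called with PE alone. Eif4ebp1 had 51.1, 48.4 and 59.2 FPKM in P, all below the NC libraries, with a difference of -0.28 ± 0.08 (adjusted p = 0.0512). Eif2ak3 had 7.08, 7.28 and 7.02 FPKM in P, again below every NC library, with a difference of -0.37 ± 0.17 (adjusted p = 0.21). Eif5a (-0.02 ± 0.03, adjusted p = 0.753) and Eif4g1 (-0.01 ± 0.06, adjusted p = 0.928) had overlapping groups.

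When PE-treated cells received 10 pulses, the same leading genes were higher as without PE, and more members passed. In P_ES10 against P 13 of 52 rose and 4 fell, where 22.9% of all genes were called, 13.2% higher and 9.66% lower. The medians were 0.07 for members and 0.00 for all genes. With nuclear reads as the scale the split was 6 higher and 6 lower, with total reads 8 and 10, and with quantile normalization 10 and 9. On these scales 23.1%, 36.9% and 27.0% of all genes were called. The 13 that rose included 6 of the 7 that rose in ES10 against NC: Eif1, Eif3a, Eif4e, Eif4enif1, Eif4g2 and Eif6. These 2 comparisons share no library. The same overlap was not counted among all genes, so this repeat is not shown to be particular to the members. Of the 17 calls 12 remained with total reads, 10 with nuclear reads and 6 with reads thinned to equal nuclear depth. The 4 macrophage markers summed to 1.37 to 1.53 FPKM in P and 2.63 to 3.70 FPKM in P_ES10, and their part was not tested.

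Eif1 rose from 141, 144 and 150 FPKM in P to 221, 223 and 218 FPKM in P_ES10, a difference of 0.60 ± 0.04 (adjusted p = 4.49e-08). Eif4e rose from 30.5, 30.3 and 33.3 to 43.6, 39.5 and 39.4 FPKM (0.37 ± 0.07, adjusted p = 0.000946). Eif4g2 rose from 163, 166 and 158 to 206, 197 and 199 FPKM (0.31 ± 0.03, adjusted p = 4.03e-06). In all 3 genes the groups did not overlap. Eif4enif1 rose from 9.71, 9.47 and 9.20 to 12.3, 12.3 and 11.4 FPKM (0.31 ± 0.07, adjusted p = 0.0035), Eif3a by 0.20 ± 0.04 (adjusted p = 0.00196) and Eif1a by 0.28 ± 0.05 (adjusted p = 0.00127). For these 6 genes the call remained without each library in turn. That of Eif3a was lost with total reads (0.11, adjusted p = 0.0648), and those of Eif1a (adjusted p = 0.0547) and Eif4enif1 (adjusted p = 0.297) with thinned reads. Eif5, which triggers GTP hydrolysis by eIF2, had 55.6, 55.5 and 56.2 FPKM in P and 68.8, 68.7 and 70.1 FPKM in P_ES10 (0.31 ± 0.09, adjusted p = 0.0212), but missed the threshold without any 1 library (p 0.0514 to 0.0663). Eif6 rose from 93.3, 83.3 and 89.4 to 101, 107 and 99.4 FPKM (0.21 ± 0.05, adjusted p = 0.0115), and missed it without P replicate 2 (adjusted p = 0.0638) or P_ES10 replicate 2 (adjusted p = 0.0566).

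Of the kinases, Eif2ak3 had 7.08, 7.28 and 7.02 FPKM in P and 10.9, 10.9 and 10.5 FPKM in P_ES10. The difference of 0.54 ± 0.17 (adjusted p = 0.0326) missed the threshold without any 1 of the 6 libraries (p 0.0724 to 0.0879), under the same pooled error as above. Eif2ak1, the haem-regulated kinase HRI, had 14.6, 14.8 and 15.6 FPKM in P and 17.5, 17.8 and 18.3 FPKM in P_ES10 (0.24 ± 0.07, adjusted p = 0.0209), and missed it without P replicate 1 (adjusted p = 0.0746) or 2 (adjusted p = 0.0659) or P_ES10 replicate 2 (adjusted p = 0.0525) or 3 (adjusted p = 0.0762). Eif2ak2, the double-stranded RNA kinase PKR, was not called (-0.19 ± 0.08, adjusted p = 0.113), nor was Eif2ak4, the amino acid sensor GCN2 (-0.14 ± 0.09, adjusted p = 0.316).

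The 4 that fell were Eif4ebp1, Eif4g3 and the eIF2B genes Eif2b2 and Eif2b5. Eif4ebp1 fell from 51.1, 48.4 and 59.2 to 47.6, 42.4 and 39.2 FPKM (-0.29 ± 0.08, adjusted p = 0.0208), a call that was lost without P replicate 3 (adjusted p = 0.108) or P_ES10 replicate 2 (adjusted p = 0.061) or 3 (adjusted p = 0.106). Eif2b2 had 26.9, 24.6 and 26.7 FPKM in P and 21.2, 20.9 and 20.0 FPKM in P_ES10. Its difference of -0.32 ± 0.10 (adjusted p = 0.0389) missed the threshold without any 1 library (p 0.0532 to 0.118). Eif2b5, the catalytic subunit, had 8.65, 9.47 and 10.0 FPKM in P and 6.96, 7.43 and 8.36 FPKM in P_ES10 (-0.28 ± 0.09, adjusted p = 0.0314). It missed it without P replicate 2 (adjusted p = 0.0875) or 3 (adjusted p = 0.125) or P_ES10 replicate 1 (adjusted p = 0.139) or 2 (adjusted p = 0.0895). Eif4g3 fell from 13.8, 14.0 and 13.5 to 10.9, 12.3 and 11.2 FPKM (-0.25 ± 0.07, adjusted p = 0.0225), and missed it without P replicate 1 (adjusted p = 0.0625) or 2 (adjusted p = 0.075) or P_ES10 replicate 1 (adjusted p = 0.0986) or 3 (adjusted p = 0.0786).

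The response to 10 pulses was not shown to differ with PE for any member. The interaction by limma called 0 of 52, where 0.906% of all genes were called, 0.562% positive and 0.344% negative. Unadjusted p was under 0.05 in 4 members, a count given without the share of all genes at that threshold. The nearest was Eif1, whose response was larger with PE by 0.25 ± 0.06 (adjusted p = 0.0512). In a fit without the ES50 group this difference had an adjusted p of 0.00913, with nuclear scaling 0.0337 and with total reads 0.104. The levels of Eif1 after 10 pulses were near equal, 221 ± 5.47 FPKM in ES10 and 220 ± 2.55 in P_ES10 (mean ± SD). The levels without pulses differed, 172 ± 5.95 FPKM in NC and 145 ± 4.57 in P, so the larger response started from a lower level.

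**Figure D2:**
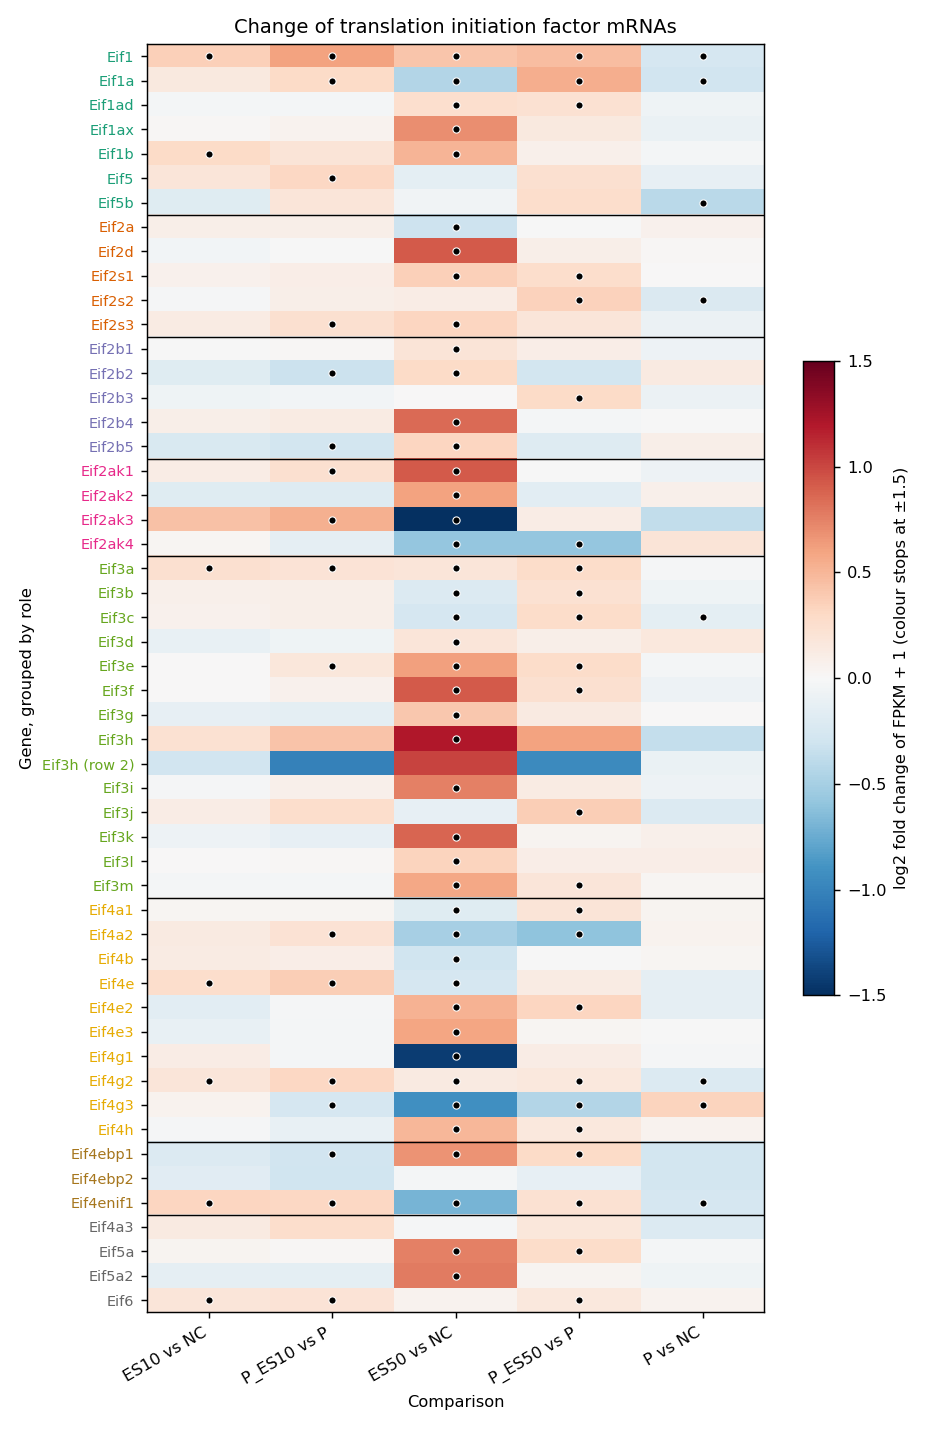
Difference in log2(FPKM + 1) of the 52 tested members (vertical axis, grouped by role) in 5 comparisons (horizontal axis), red higher and blue lower. Dots mark an adjusted p under 0.05, and the colour stops at 1.5 in each direction. Both 10-pulse columns show the same few red genes, the ES50 column is red with a dot in 10 of 14 eIF3 entries (5 with quantile normalization) and blue in Eif4g1, Eif4g3 and Eif2ak3, and with total reads as the scale every entry of the ES50 column is lower.

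After 50 pulses without PE, relative to the median gene, 10 of 14 eIF3 entries, 4 of 5 eIF2B subunits, Eif5a, Eif4ebp1 and the kinases Eif2ak1 and Eif2ak2 were higher. The large scaffolds Eif4g1 and Eif4g3, the kinases Eif2ak3 and Eif2ak4, the transporter Eif4enif1 and both cytoplasmic eIF4A helicases were lower. In ES50 against NC 30 of 52 members rose and 13 fell, where 72% of all genes were called, 31.9% higher and 40.1% lower. The share of members that rose was 57.7% and the share that fell 25%. The median difference was 0.27 for members and -0.13 for all genes. Most called directions changed with total reads as the scale, of which mitochondrial transcripts took 92.1% in ES50. On it the median of all genes was -2.43 and all 52 members were lower, with a median of -2.98. With nuclear reads 25 members were higher and 14 lower, and all 43 calls kept their direction. With quantile normalization 18 members were higher and 20 lower. The shares of all genes called were 96.5% with total reads, 72.6% with nuclear reads and 69.0% with quantile normalization. The 13 genes that fell on the deposited scale also fell with total reads, and 38 of the 43 called kept their direction with quantile normalization. Of the 43 calls 37 remained with only NC and ES50 in the fit, and 37 with reads thinned to equal nuclear depth.

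The eIF2 kinases split, with 2 of 4 higher on the deposited and quantile scales and none with total reads. Eif2ak3 fell from 9.53, 9.46 and 9.45 FPKM in NC to 1.81, 2.03 and 0.569 FPKM in ES50, the largest fall among the members on the log2 scale. Behind these levels lay 971, 1127 and 1034 reads in NC and 18, 24 and 6 reads in ES50. The difference was -2.14 ± 0.17 (adjusted p = 1.51e-08), and leaving out each library in turn kept it between -2.32 and -1.85. Eif2ak3 lies at chr4:98648545-98709694 on the plus strand in Rnor 6.0. Eif2ak4 fell from 2.49, 2.67 and 2.57 to 1.56, 1.19 and 1.47 FPKM (-0.58 ± 0.09, adjusted p = 3.88e-05). Eif2ak1 rose from 14.9, 16.1 and 16.6 to 29.5, 32.1 and 31.4 FPKM (0.92 ± 0.07, adjusted p = 8.79e-09), and Eif2ak2 from 5.76, 6.82 and 5.76 to 10.3, 10.0 and 9.07 FPKM (0.60 ± 0.08, adjusted p = 7.28e-06). Both differences were below 0 with total reads, at -2.34 and -2.21, close to the -2.43 of the median gene.

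The cap-binding group was the one with more falls than rises, 6 of 10 against 4, and with total reads all 10 were lower. Eif4g1 (chr11:83908109-83926524, minus strand, Rnor 6.0) fell from 37.0, 38.4 and 39.3 to 14.0, 14.5 and 12.5 FPKM (-1.42 ± 0.06, adjusted p = 6.75e-12). The table also holds 2 Eif4g1-like genes. Reads summed over all 3 numbered 485 to 541 per 1000000 nuclear reads in NC and 183 to 249 in ES50. Eif4g3 fell from 10.0, 10.4 and 11.8 to 5.16, 5.03 and 5.41 FPKM (-0.92 ± 0.07, adjusted p = 1.48e-08). Their relative Eif4g2 went the other way on the deposited scale, from 187, 189 and 183 to 207, 200 and 207 FPKM (0.13 ± 0.03, adjusted p = 0.00106). The helicase Eif4a2 fell from 82.7, 81.1 and 79.5 to 49.9, 56.2 and 66.1 FPKM (-0.50 ± 0.07, adjusted p = 8.74e-06) and Eif4a1 from 240, 232 and 238 to 214, 208 and 206 FPKM (-0.18 ± 0.03, adjusted p = 3.14e-05). Eif4e fell from 35.5, 34.0 and 34.5 to 27.0, 32.1 and 28.0 FPKM (-0.25 ± 0.07, adjusted p = 0.00344). Eif4b, the helicase cofactor, fell by 0.29 ± 0.06, while the other cofactor Eif4h rose by 0.50 ± 0.04 on the deposited scale. The eIF4E relatives Eif4e2 and Eif4e3 were also higher on that scale (0.52 ± 0.08 and 0.59 ± 0.18).

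The eIF4E-binding genes split, 1 of 3 higher on the deposited scale and none with total reads. Eif4ebp1 rose from 66.2, 66 and 60.2 to 111, 104 and 94.7 FPKM (0.68 ± 0.08, adjusted p = 2.65e-06), and with total reads its difference was -2.78. Eif4enif1 fell from 11.3, 11.8 and 11.3 to 7.21, 5.97 and 6.93 FPKM (-0.70 ± 0.07, adjusted p = 1.7e-07). Eif4ebp2 had 9.02, 15.2 and 17.0 FPKM in ES50 around the 12.2 to 14.4 FPKM of NC and was not called (-0.02 ± 0.15, adjusted p = 0.894).

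Of 14 eIF3 entries 10 rose and 2 fell, against 8 and 2 with nuclear reads, 5 and 4 with quantile normalization and 0 and 14 with total reads, with a median of 0.50 on the deposited scale, 0.17 with quantile normalization and -2.91 with total reads. Eif3f, a subunit of the module that carries MPN and PCI domains, rose from 113, 114 and 119 to 219, 231 and 209 FPKM (0.93 ± 0.04, adjusted p = 4.52e-11). Eif3k rose from 56.7, 61.2 and 54.1 to 92.5, 105 and 122 FPKM (0.88 ± 0.08, adjusted p = 1.47e-07). Eif3e rose by 0.61 ± 0.06 and Eif3m by 0.59 ± 0.05 on the deposited scale, both with non-overlapping groups. The core subunits Eif3b and Eif3c fell: Eif3b from 86.3, 84.1 and 86.7 to 78.9, 76.9 and 66.6 FPKM (-0.21 ± 0.05, adjusted p = 0.00106) and Eif3c from 143, 146 and 144 to 124, 128 and 113 FPKM (-0.25 ± 0.04, adjusted p = 2.24e-05). The third core subunit Eif3a rose on the deposited scale, by 0.19 ± 0.04 (adjusted p = 0.000688).

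Eif3h and Eif3i are less certain within this group. The 2 Eif3h entries varied widely between replicates: the first had 55.1, 15.2 and 69.1 FPKM and the second 13.5, 25.4 and 3.88 FPKM in NC. Whether these entries share reads was not tested. The first rose to 90.2, 90.3 and 92.4 FPKM in ES50 (1.20 ± 0.50, adjusted p = 0.0403), and lost the call without NC replicate 2 (0.55, adjusted p = 0.259) or ES50 replicate 1 (adjusted p = 0.072), 2 (adjusted p = 0.0737) or 3 (adjusted p = 0.0758). Summed, both entries had 73.8 to 170 reads per 1000000 nuclear reads in NC and 227 to 254 in ES50, which did not overlap. Eif3i has a processed copy, Eif3i-ps1, and the sum of both was 77.2 to 88.4 reads per 1000000 nuclear reads in NC and 121 to 151 in ES50.

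Among the 40S and start codon factors 4 of 7 rose and 1 fell on the deposited scale, while all 7 were lower with total reads and the split was 3 and 3 with quantile normalization. Eif1 rose from 179, 172 and 167 to 237, 218 and 236 FPKM (0.42 ± 0.04, adjusted p = 1.23e-07). Eif1a fell from 35.0, 35.0 and 36.7 to 23.9, 26.2 and 28.0 FPKM (-0.44 ± 0.05, adjusted p = 2.28e-06), whereas Eif1ax, its near-identical relative, rose from 35.4, 32.8 and 35.0 to 59.1, 59.3 and 51.5 FPKM (0.70 ± 0.06, adjusted p = 3.67e-08). How the authors counted reads that match both is not stated in those sources, so the opposite directions of this pair are uncertain. Eif1ad, named for an eIF1A-like domain and not a scanning factor itself, rose by 0.25 ± 0.06.

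In the eIF2 group 3 of 5 rose and 1 fell on the deposited scale, and none rose with total reads. Eif2s1, which encodes eIF2α, the substrate of the 4 kinases, rose from 60.8, 57.0 and 60.8 to 72.0, 72.8 and 85.3 FPKM (0.36 ± 0.07, adjusted p = 0.00015), with a difference of 0.01 under quantile normalization. Eif2d, which can deliver tRNA without eIF2, rose from 11.4, 11.7 and 11.7 to 18.1, 26.6 and 24.7 FPKM (0.92 ± 0.11, adjusted p = 2.29e-06). Eif2a, another tRNA carrier, had 9.14, 7.37 and 5.95 FPKM in ES50 against 9.22 to 9.59 FPKM in NC (-0.31 ± 0.10, adjusted p = 0.0115), a call lost without ES50 replicate 3 (-0.17, adjusted p = 0.0535). Of 5 eIF2B genes 4 rose on the deposited scale, with a median of 0.29. With nuclear reads and with quantile normalization 2 were called higher, and with total reads all 5 were lower. Eif2b4 had the largest difference of them, from 8.19, 7.72 and 7.415 to 17.0, 16.5 and 11.4 FPKM (0.84 ± 0.12, adjusted p = 1.26e-05). Eif2b1 lost its call without NC replicate 2 (adjusted p = 0.0746) or ES50 replicate 1 (adjusted p = 0.0646), and Eif2b2 without NC replicate 2 (adjusted p = 0.0708) or ES50 replicate 2 (adjusted p = 0.111).

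Eif5a rose from 342, 333 and 340 to 549, 586 and 579 FPKM (0.75 ± 0.03, adjusted p = 1.39e-11), but had a difference of -0.14 with quantile normalization and -2.77 with total reads. Its paralog Eif5a2 rose from 5.26, 5.28 and 4.81 to 11.7, 8.58 and 8.39 FPKM (0.78 ± 0.10, adjusted p = 4.59e-06). Eif6 was not called (0.05 ± 0.05, adjusted p = 0.388).

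With PE, 50 pulses gave smaller differences and few falls. In P_ES50 against P 21 of 52 rose and 3 fell, where 28.3% of all genes were called, 14.1% higher and 14.2% lower. The share of members that rose was 40.4%. The medians were 0.15 for members and -0.01 for all genes. With quantile normalization the split was 11 higher and 4 lower. With total reads, which put the median of all genes at -0.77, it was 0 higher and 51 lower. On these scales 29.0% and 88.5% of all genes were called. Of the 24 calls 18 remained with reads thinned to equal nuclear depth. This comparison and P_ES10 against P share the P libraries, so their values are given side by side and not correlated.

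In the 40S group 3 of 7 rose and none fell on the deposited and quantile scales, and all 7 were lower with total reads. Eif1a rose from 28.4, 29.3 and 29.1 FPKM in P to 41.2, 42.8 and 44.2 FPKM in P_ES50 (0.55 ± 0.05, adjusted p = 2.59e-06). Eif1 rose from 141, 144 and 150 to 207, 196 and 199 FPKM (0.47 ± 0.04, adjusted p = 5.57e-07). Eif1ad was the third (0.23 ± 0.06, adjusted p = 0.0133), a call lost without P replicate 2 (adjusted p = 0.0554) or P_ES50 replicate 2 (adjusted p = 0.0507). Eif2s2 rose from 103, 114 and 115 to 144, 143 and 135 FPKM (0.34 ± 0.06, adjusted p = 0.000523) and Eif2s1 from 57.5, 60.2 and 62.0 to 66.03, 75.9 and 73.9 FPKM (0.26 ± 0.07, adjusted p = 0.00783), again lower with total reads (-0.55 and -0.63).

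Of 14 eIF3 entries 7 rose and none fell, with a median of 0.20 on the deposited scale, 0.10 with quantile normalization and -0.69 with total reads. They were Eif3a, Eif3b, Eif3c, Eif3e, Eif3f, Eif3j and Eif3m. Eif3b rose from 79.8, 82.8 and 83.2 to 94.1, 97.0 and 97.4 FPKM (0.23 ± 0.05, adjusted p = 0.00233) and Eif3c from 130, 129 and 131 to 160, 157 and 155 FPKM (0.27 ± 0.04, adjusted p = 7.19e-05), the pair that fell in ES50. Eif3f rose from 114, 105 and 108 to 130, 121 and 134 FPKM (0.24 ± 0.04, adjusted p = 0.0011). Eif3j, a loosely bound subunit, had 28.2, 31.8 and 30.3 FPKM in P and 36.0, 42.0 and 39.3 FPKM in P_ES50 (0.37 ± 0.10, adjusted p = 0.0149), a call lost without P replicate 1 (adjusted p = 0.0645) or P_ES50 replicate 2 (adjusted p = 0.0629). Eif3m (0.18 ± 0.05, adjusted p = 0.0186) lost its call without P replicate 1 (adjusted p = 0.0673) or 2 (adjusted p = 0.0645) or P_ES50 replicate 2 (adjusted p = 0.0828) or 3 (adjusted p = 0.0565).

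The 3 that fell were Eif4a2, Eif2ak4 and Eif4g3, all of which also fell in ES50 against NC. Eif4a2 fell from 82.2, 85.4 and 84.0 to 54.2, 56.8 and 53.4 FPKM (-0.61 ± 0.07, adjusted p = 1.21e-05), while its paralog Eif4a1 rose on the deposited scale from 245, 238 and 249 to 280, 272 and 282 FPKM (0.19 ± 0.03, adjusted p = 0.00013). Eif2ak4 fell from 3.37, 3.11 and 2.82 to 1.71, 1.57 and 1.92 FPKM (-0.58 ± 0.09, adjusted p = 0.000232). Eif4g3 fell from 13.8, 14.0 and 13.5 to 10.2, 10.4 and 8.999 FPKM (-0.44 ± 0.07, adjusted p = 0.00033). These 3 falls had the same sign with the total, nuclear and quantile scales. Eif4e2, a cap-binding relative of eIF4E that can repress translation, rose on the deposited scale from 22.7, 20.0 and 23.2 to 28.0, 26.9 and 28.0 FPKM (0.32 ± 0.08, adjusted p = 0.00899), a call lost without P replicate 2 (0.25, adjusted p = 0.053).

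Several genes called in ES50 were not called here. Eif2ak3 had 7.96, 8.67 and 6.84 FPKM in P_ES50, around the 7.02 to 7.28 FPKM of P (0.11 ± 0.17, adjusted p = 0.677). Eif4g1 had 42.9, 38.8 and 41.2 FPKM against 37.0 to 38.3 FPKM in P (0.11 ± 0.06, adjusted p = 0.182). Eif2ak1 had 14.4, 13.5 and 17.1 FPKM against 14.6 to 15.6 FPKM (-0.01 ± 0.07, adjusted p = 0.959). Eif4e had 34.7, 36.1 and 32.3 FPKM and was not called (0.13 ± 0.07, adjusted p = 0.184). Eif4ebp1 rose on the deposited scale to 64.0, 64.1 and 65.7 FPKM (0.29 ± 0.08, adjusted p = 0.0179), a call lost without P replicate 1 (adjusted p = 0.0646) or 2 (adjusted p = 0.0901) or P_ES50 replicate 3 (adjusted p = 0.055), and Eif5a rose to 397, 413 and 400 FPKM (0.28 ± 0.03, adjusted p = 1.93e-05).

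The response to 50 pulses differed between cells with and without PE for more than 1 in 2 members. The interaction called 30 of 52, 13 more positive and 17 more negative with PE, where 59% of all genes were called, 31.1% positive and 27.9% negative, so the members' share of 57.7% was near the background. With total reads the split was 51 and 0, where 88.9% of all genes were called. The largest positive differences that were called were in Eif2ak3 (2.26 ± 0.24, adjusted p = 9.69e-07), Eif4g1 (1.53 ± 0.08, adjusted p = 5e-10) and Eif1a (0.98 ± 0.08, adjusted p = 2.63e-08). In each of them ES50 libraries lay below NC and P_ES50 libraries did not lie below P as a group. The largest negative ones called were in Eif2ak1 (-0.93 ± 0.10, adjusted p = 9.63e-07), Eif2b4 (-0.87 ± 0.17, adjusted p = 0.000394) and Eif3k (-0.84 ± 0.12, adjusted p = 1.93e-05), which turned positive with total reads. In the eIF4 group 5 of 10 were more positive and 1 more negative, and in eIF2B 0 and 3 of 5; with total reads all of both groups were positive. For Eif2ak4 (-0.01 ± 0.13, adjusted p = 0.969), Eif4a2 (-0.10 ± 0.10, adjusted p = 0.375) and Eif1 (0.05 ± 0.06, adjusted p = 0.457) no difference with PE was called on the deposited scale. With quantile normalization Eif1 (0.50, adjusted p = 4.07e-06) and Eif2ak4 (-0.32, adjusted p = 0.0366) were called, and with total reads all 3 were called as more positive with PE.

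**Figure D3:**
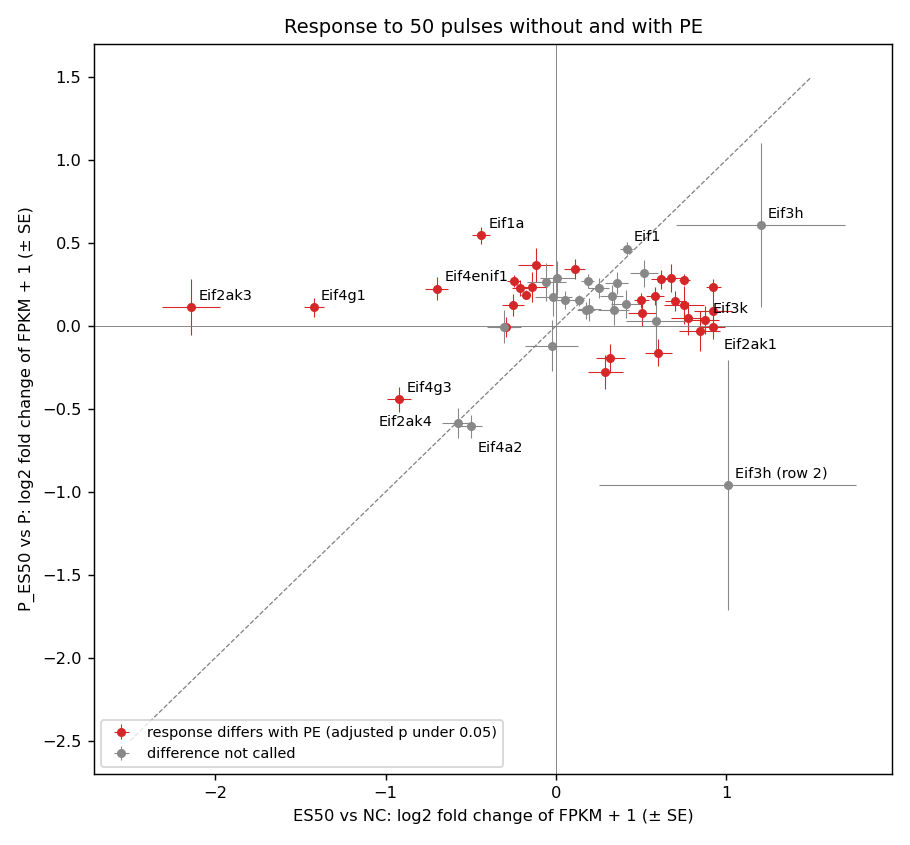
Difference in log2(FPKM + 1) after 50 pulses for each of the 52 tested members, without PE on the horizontal and with PE on the vertical axis. Bars are SE, the dashed line marks equal responses, and red marks an interaction with adjusted p under 0.05. Eif2ak3 and Eif4g1 lie far left near the horizontal zero line, while Eif2ak4, Eif4a2 and Eif1 lie near the dashed line, all on the deposited scaling; with total reads nearly all differences are negative on both axes.

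Ratios of paired members within a library do not depend on the scale between libraries. The 3 ratios here were chosen after the levels were seen, with 15 exact two-sided permutation tests in all. With 3 libraries against 3 the smallest p is 0.1 (adjusted 0.15), so none could pass. The ratio of the brake Eif4ebp1 to its target Eif4e was 1.85 ± 0.0998 in the NC libraries, 1.33 ± 0.0817 in ES10 and 3.58 ± 0.465 in ES50, and 1.68 ± 0.0911 in P, 1.05 ± 0.0496 in P_ES10 and 1.89 ± 0.135 in P_ES50 (FPKM ratio, mean ± SD, n = 3). It was lower in every library with 10 pulses than in every library of the matching control, both without and with PE. The ES50 libraries, from 3.25 to 4.11, were the highest of all groups.

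The ratio of the kinase genes Eif2ak1 and Eif2ak3 was 1.68 ± 0.0990 in the NC libraries, 1.31 ± 0.0121 in ES10 and 15.8 to 55.3 in the ES50 libraries, the upper end of which rests on 6 reads of Eif2ak3. With PE it was 2.10 ± 0.102 in P, 1.66 ± 0.0740 in P_ES10 and 1.95 ± 0.490 in P_ES50, where the last overlapped with P. The ratio of Eif4g2 to Eif4g1 was 4.88 ± 0.207 in the NC libraries, 5.10 ± 0.244 in ES10 and 15.1 ± 1.37 in ES50, against 4.29 ± 0.0338, 5.41 ± 0.197 and 4.41 ± 0.193 in P, P_ES10 and P_ES50. ES50 stood apart from all other groups in both ratios.

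**Figure D4:**
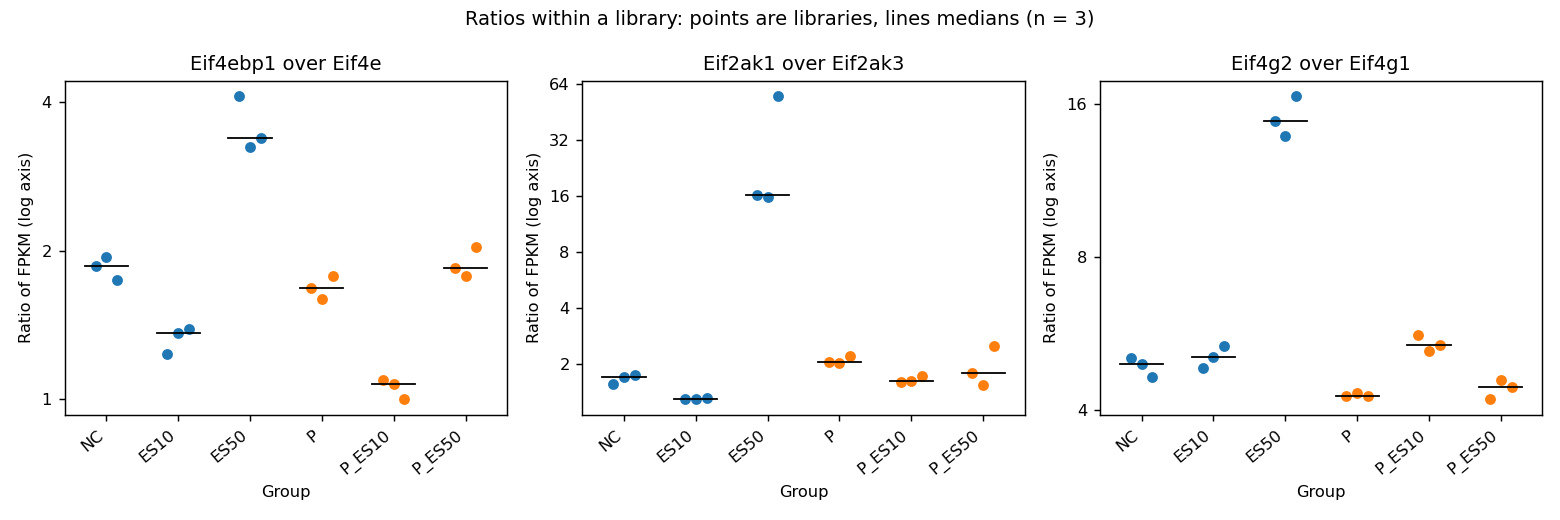
Ratio of FPKM within each library (vertical, log axis) for 3 pairs of members, by group. Points are libraries (blue without PE, orange with PE) and lines are medians, n = 3. The ES50 libraries are the highest in all 3 panels, and the Eif4ebp1 to Eif4e ratio is lower in ES10 and P_ES10 than in NC and P.

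The response to 50 pulses varied with gene length among the members. In ES50 against NC, Spearman's rho between length and the log2 difference was -0.53 over 52 members and -0.25 over 11883 nuclear genes. In P_ES50 against P it was -0.22 and -0.17. These are correlations across genes in the same libraries, given as a description. Of 16 members under 1500 bases 13 rose and 0 fell in ES50, with a median of 0.60 against 0.27 for all nuclear genes of that length. Of 20 members from 1500 to under 3000 bases 10 rose and 6 fell. Of 16 members of 3000 bases or more 7 rose and 7 fell, with a median of -0.10 against -0.46 for all nuclear genes of that length. These counts are on the deposited scale, and with total reads all 52 members were lower. They are given without the share of all nuclear genes called in each length class. Eif4g1 and Eif2ak3 are 4800 and 4491 bases long and Eif3k, Eif3f and Eif4ebp1 901, 1327 and 845 bases. Eif5a2 and Eif4g2, at 4871 and 4988 bases, rose on the deposited scale. The part of length in the ES50 differences was not tested.

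**Figure D5:**
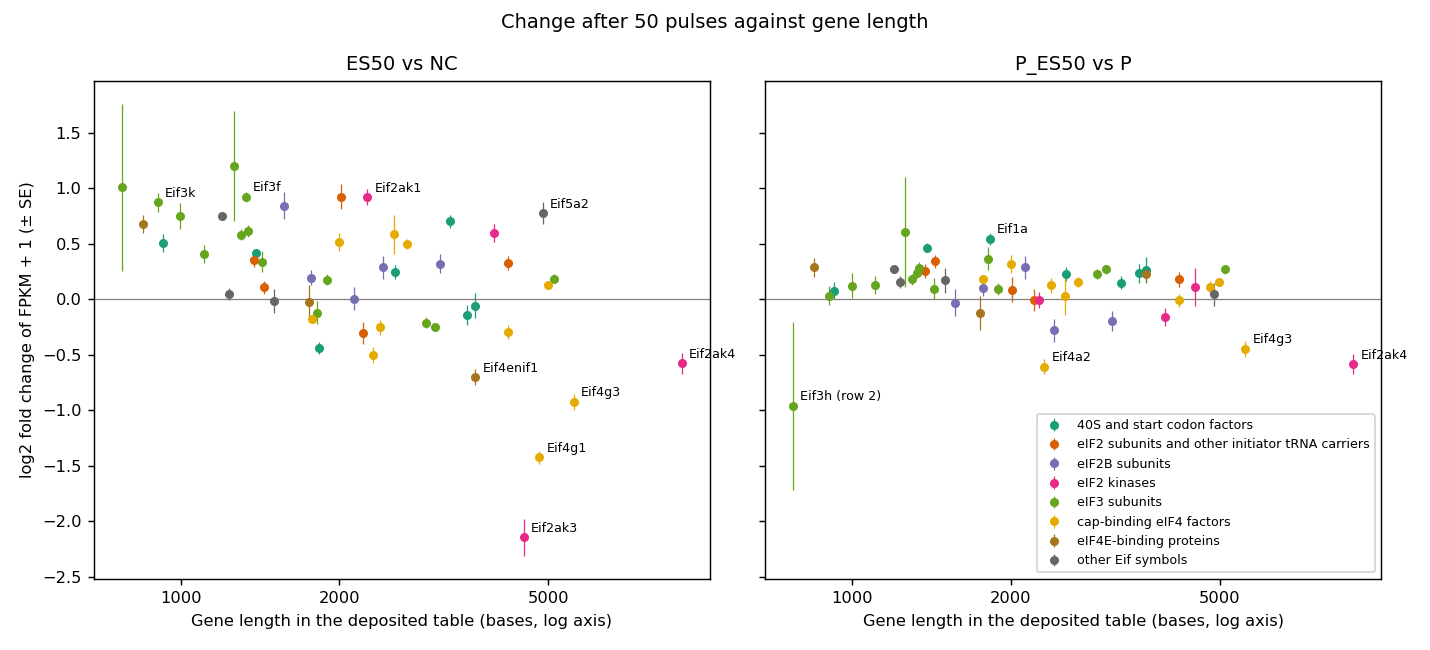
Difference in log2(FPKM + 1) with its SE (vertical) against gene length in bases (horizontal, log axis) for the 52 tested members, in ES50 against NC and in P_ES50 against P, coloured by role. On the deposited scaling the short genes lie mostly above 0 in ES50 and the lowest points are long genes. With total reads all ES50 differences lie below 0. In P_ES50 most points lie within 0.5 of 0.

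Genes that act around these factors were taken from 5 lists. The shares of all genes called, against which their counts stand, were 8.57% in ES10, 9.53% in P, 22.9% in P_ES10, 28.3% in P_ES50 and 72% in ES50. Of 13 tested genes of the eIF2 phosphorylation pathway 2 rose and 0 fell in ES10, 0 and 4 in P against NC, 5 and 3 in P_ES10 against P, 6 and 2 in P_ES50 against P, and 4 and 7 in ES50. Atf4, the transcription factor favoured when eIF2α is phosphorylated, rose with 10 pulses by 0.32 ± 0.06 without PE and 0.64 ± 0.06 with PE (adjusted p = 0.00529 and 3.36e-06). Ppp1r15a, the stress-induced subunit of the eIF2α phosphatase, rose by 0.67 ± 0.10 and 1.39 ± 0.10 (adjusted p = 0.000387 and 8.22e-08). Both fell with PE alone, by 0.40 ± 0.06 and 0.44 ± 0.10. The constitutive phosphatase subunit Ppp1r15b fell in ES50 from 20.9 ± 0.577 to 5.25 ± 1.74 FPKM (-1.85 ± 0.13). Impact, an inhibitor of GCN2 activation, fell from 24.4 ± 0.886 to 8.38 ± 1.65 FPKM (-1.45 ± 0.09), as did Eif2ak3 and Eif2ak4. Ppp1ca, of the same list, rose in ES50 on the deposited scale, from 167 ± 2.60 to 305 ± 12.8 FPKM (0.86 ± 0.04). The kinases Eif2ak1 and Eif2ak2 also rose on that scale.

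Of 20 tested genes that signal to initiation 1 rose and 2 fell in ES10, 1 and 6 in P, 6 and 3 in P_ES10, 8 and 4 in P_ES50 and 8 and 7 in ES50, the last a share near that of all genes. Mknk2, a kinase that phosphorylates eIF4E, rose with PE alone (0.33 ± 0.04) and fell in ES10 (96.2 ± 3.16 to 68.8 ± 0.479 FPKM, -0.48 ± 0.04, adjusted p = 6.4e-06), P_ES10 (121 ± 1.73 to 68.2 ± 1.40 FPKM, -0.82 ± 0.04, adjusted p = 5.11e-09) and P_ES50 (71.8 ± 2.31 FPKM, -0.75 ± 0.04, adjusted p = 8.22e-09). It thus fell with 10 pulses where Eif4e rose. In ES50 Ddit4 and Tsc1, inhibitors of mTORC1, fell by 1.68 ± 0.08 and 1.29 ± 0.07, and Akt1 rose by 0.95 ± 0.04 on the deposited scale.

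Of 14 poly(A)-binding, scanning and reinitiation helpers 3 rose and 0 fell in ES10, 0 and 2 in P, 4 and 3 in P_ES10, 3 and 0 in P_ES50 and 6 and 3 in ES50. Pabpc1, which binds both the poly(A) tail and eIF4G, rose by 0.19 ± 0.04 in ES10, 0.36 ± 0.04 in P_ES10, 0.49 ± 0.04 in P_ES50 and 1.05 ± 0.04 in ES50, the last 2 on the deposited scale. The helicase gene Ddx3x fell in ES50, from 99.7 ± 2.26 to 41.1 ± 3.26 FPKM (-1.26 ± 0.05). Of 11 elongation and termination factors 2 rose in ES10, 5 in P_ES10, 8 in P_ES50 and 6 in ES50, with 0, 0, 1 and 1 lower, and in P 0 rose and 2 fell. Pelo, which rescues stalled ribosomes, rose by 0.45 ± 0.05 in ES10 and by 0.59 ± 0.05 in both P_ES10 and P_ES50. Of 9 mitochondrial translation factors 0 were called in ES10, P and P_ES10, 1 fell in P_ES50, and 5 rose and 2 fell in ES50.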

How the data were processed

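Per the labels' protocols, poly(A) RNA was captured on poly-T beads from 1 µg of RNA and primed with random hexamers. The authors deposited FPKM per gene, on Rnor 6.0 per the submitters' processing notes; the sources used here give no aligner, counter or strandedness, so overlapping and near-identical genes may share reads. FPKM times gene length gave whole multiples in 100% of values (tolerance 0.01 of a read), which recovered the reads per library, and the deposited values had equal median ratios in the 18 libraries.

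Groups came from the labels. The 11917 genes that reached 1 FPKM in 3 or more libraries entered a limma 3.58.1 fit of log2(FPKM + 1) (R 4.3.3, version 1.17.8 of data.table), 6 group means, trended variance, and Benjamini-Hochberg adjustment within each of 7 comparisons. An adjusted p under 0.05 was called; this scale understates changes of low genes. Members and lists were chosen with earlier results of these data known. Named by rule were the 5 largest non-overlapping calls in each direction (3 for interactions), 12 fixed members and up to 3 genes per outside list. Other calls were chosen after their values were seen. Alternatives covered pseudocount, filter, scaling, libraries in the fit, left-out libraries and a replicate block, and thinning, chosen after seeing the data. The steps were tested on simulated data. Tables and plots used Python 3.11.15, numpy 2.4.6, pandas 2.3.3, scipy 1.17.1 and matplotlib 3.10.9.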

Additional observations from a re-analysis of the deposited data

Results flagged for a closer look

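Among the members named by rule, the response to 50 pulses differed with PE for 11 by the interaction test (limma, adjusted p under 0.05). Over all 52 tested members this test called 57.7%, near the 59% called among all genes. Eif1a, Eif2b4 and Eif3k were named here only because their interaction was called and among the largest. The difference, with PE minus without, on the log2(FPKM + 1) scale was 2.26 for Eif2ak3, 1.53 for Eif4g1, 0.98 for Eif1a, 0.38 for Eif4e and 0.36 for Eif4a1. It was -0.93 for Eif2ak1, -0.87 for Eif2b4, -0.84 for Eif3k, -0.76 for Eif2ak2, -0.48 for Eif5a and -0.39 for Eif4ebp1. Mitochondrial genes took 92.1% of reads in ES50 and 48.6% in P_ES50, and their part in these differences was not tested. The negative ones turned positive with total reads as the scale, and that of Eif5a also with quantile normalization.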

How the results depend on the processing

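Scaling to total reads reversed most called directions after 50 pulses. With nuclear reads all 43 calls in ES50 and all 24 in P_ES50 kept their direction, and with quantile normalization 38 and 23. Of the results named, 35 reversed under at least 1 alternative; the cause was not tested. With total reads the log2 difference in ES50 against NC was -2.23 for Eif3h, -2.58 for Eif3f, -2.24 for Eif2d, -2.34 for Eif2ak1, -2.58 for Eif3k, -3.07 for Eif2s1, -2.21 for Eif2ak2, -2.78 for Eif4ebp1, -2.77 for Eif5a and -3.39 for Eif6. In P_ES50 against P it was -0.33 for Eif1a, -0.43 for Eif1, -0.51 for Eif3j, -0.55 for Eif2s2 and Eif4e2, -0.63 for Eif2s1, -0.70 for Eif2ak3, -0.75 for Eif4e, -0.77 for Eif4g1, -0.71 for Eif4a1, -0.60 for Eif4ebp1, -0.62 for Eif5a and -0.73 for Eif6. The interaction with 50 pulses became 1.47 for Eif2ak1, 1.31 for Eif2b4, 1.72 for Eif3k, 2.44 for Eif2s1, 1.25 for Eif2ak2, 0.84 for Eif2ak4, 2.18 for Eif4ebp1, 2.04 for Eif4ebp2 and 2.15 for Eif5a. Quantile normalization gave -0.14 for Eif5a and -0.36 for Eif6 in ES50, -0.10 for Eif4a1 and -0.13 for Eif5a in P_ES10, -0.071 for Eif4a1 in P_ES50 and 0.19 for the Eif5a interaction. Eif4ebp2 in ES50 ranged from -0.19 to 0.23 when 1 library was left out (0.23 without ES50 replicate 1).

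Members called moved from 7 in ES10 to 4 with total reads, 13 when fitted on the compared groups alone, 17 without the ES50 group and 3 with reads thinned to equal nuclear depth. In P they moved from 8 to 15 without ES50 and 2 when thinned, and in P_ES10 from 17 to 27, 26 and 6 with only the groups compared, without ES50 and when thinned. In P_ES50 they moved from 24 to 51 with total reads and 15 with quantile normalization. The 50-pulse interaction moved from 30 to 51 with total reads, and the 10-pulse one from 0 to 1 with nuclear scaling, quantile normalization, only the groups compared or without ES50. With total reads 14.1% of all genes were called in ES10, 88.5% in P_ES50 and 88.9% in the 50-pulse interaction. With quantile normalization 29.0% of all genes were called in P_ES50. In the 10-pulse interaction 0.923% of all genes were called with nuclear scaling and 1.26% with quantile normalization. Counts with only the groups compared, without ES50, with thinned reads, with 1 library left out or with the replicate block lack this share. Leaving out 1 library at a time gave 4 to 5 in ES10, 40 to 43 in ES50, 3 to 6 in P, 7 to 11 in P_ES10, 17 to 21 in P_ES50, 0 to 1 and 29 to 37 in the interactions. The split for the 50-pulse interaction was 20 positive and 14 negative with quantile normalization, where 57.0% of all genes were called.

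The replicate numbers only name libraries in the labels, so they were not taken as pairs. Deviations from the group mean correlated at 0.034 to 0.101 between same-numbered libraries of ES10 and NC, and at -0.095 to 0.005 between the others. In the other comparisons with the own control, same-numbered libraries correlated at -0.088 to 0.035. The replicate block gave 6, 43, 8, 16 and 22 members called in ES10, ES50, P, P_ES10 and P_ES50, and 0 and 31 in the interactions. ES50 held the fewest nuclear reads, which limits its low genes.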
